A study of Mus musculus with 11 samples.

Results

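The nucleosome remodeling and deacetylase (NuRD) complex was examined through 10 of its subunit genes, Hdac1, Hdac2, Chd4, Mta1, Mta2, Mta3, Rbbp4, Rbbp7, Gatad2b and Mbd3, in the main olfactory epithelium (MOE) of newborn mice. Every probe set of the Mouse Genome 430 2.0 array that the platform annotation gives to exactly 1 of these genes was taken, which gave 25 of the 45101 probe sets, and 24 of the 25 had a mean signal of at least 20 and were tested. A probe set is a group of short probes read as 1 signal, and the probe sets of a gene are numbered here from the brightest. RNA came from whole MOE dissected at postnatal day 0 from 6 Bcl11b knockout (KO) mice and 5 wild type (WT) mice, all labelled BALB/c and born to parents heterozygous for the knockout, with 1 array for each preparation. The knockout is conventional, so Bcl11b is lost in every cell and not only in olfactory sensory neurons (OSNs). All WT mice and 4 KO mice were males, and KO 3 and KO 6 were females. The question was whether a partner complex of Bcl11b differs in its own transcripts when Bcl11b is absent.

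NuRD joins a motor that slides nucleosomes to enzymes that remove acetyl groups from histone tails, and it is best known for silencing genes or lowering their activity in stem cells, lymphocytes and neurons. HDAC1 and HDAC2 are the deacetylases, CHD4 is the ATP-driven remodeler, the MTA proteins form the scaffold on which the deacetylases sit, RBBP4 and RBBP7 hold histones, and GATAD2B with MBD3 links the remodeler to the rest. Bcl11b, a zinc finger factor, carries at its N terminus a short motif that is known to bind RBBP4 and so to bring NuRD to genes.

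Bcl11b was reduced on each of its 4 probe sets (limma, adjusted p under 0.05), and on the brightest the signal lay between 560.5 and 1249.8 on the KO arrays and between 2694.3 and 4122.7 on the WT arrays. Median signals of whole arrays ran from 62 to 86.5 in KO and from 56.6 to 85.7 in WT. The GAPDH 3'/5' ratio, which rises as RNA is degraded or shortened, was 2.15 ± 0.343 in KO (SD, n = 6) and 2.10 ± 0.159 in WT (SD, n = 5), with its highest values on KO 3 (2.70) and KO 2 (2.42). Markers of the tissue were present in both groups. Of the lists for cell types, 5 of 9 measured mature OSN markers fell, 2 of 4 neuronal precursor markers rose, 2 of 3 erythroid markers rose and 1 of 3 skeletal muscle markers rose (limma, adjusted p under 0.05), and 0 passed of the lists for immature OSNs, supporting, basal, ciliated, glial, cartilage and bone, immune and endothelial cells. The muscle marker that rose and 1 of the 2 erythroid markers that rose were dim in WT, under the minimum mean signal of the filter. Their means were 18.96 ± 21.11 and 13.24 ± 21.64 in WT (SD, n = 5). In KO they were 76.15 ± 15.29 and 85.33 ± 14.85 (SD, n = 6). Of the 2 tested probe sets of that muscle marker, 1 passed. Each neuronal precursor marker that rose likewise passed on 1 of 2. Among the mature OSN markers that fell, 1 passed on 1 of 3 tested probe sets, 1 on 1 of 2, and the rest on each of theirs. The erythroid markers that rose passed on each of theirs. The mean log2 level of the mature OSN markers was 9.50 to 9.95 on the KO arrays and 10.2 to 10.6 on the WT arrays, and the part of this shift in the NuRD values was not tested. In whole tissue, fewer cells of a type and less RNA per cell cannot be told apart.

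No difference between KO and WT was detected in the transcripts of the 10 NuRD genes. None of the 24 probe sets passed the test (limma, adjusted p of 0.727 to 0.997), while 0.455% of all 33662 tested probe sets did, and 0 of the 24 had an unadjusted p under 0.05, against 6.92% of all. The KO and WT arrays overlapped on every member probe set, whereas 1.29% of all probe sets separated the groups completely. The log2 changes ran from -0.37 to 0.33, with a median of 0.12 against 0.047 over all probe sets. Of the 24 estimates 15 were higher in KO, which is close to the 60.4% of all probe sets that were. All changes are KO minus WT on the scale log2(signal + 16). On this scale the 95% intervals lay within 2-fold either way for all 24 members and within 1.5-fold for 12, against 94.6% and 57.6% of all probe sets. The added 16 shrinks the change of dim probe sets, so for these a 2-fold difference in signal itself can lie within the interval. With 1 added in place of 16, Gatad2b probe set 5, the dimmest tested, had a log2 change of -0.15 ± 0.47 (SE), against -0.030 ± 0.28.

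**Figure D1:**
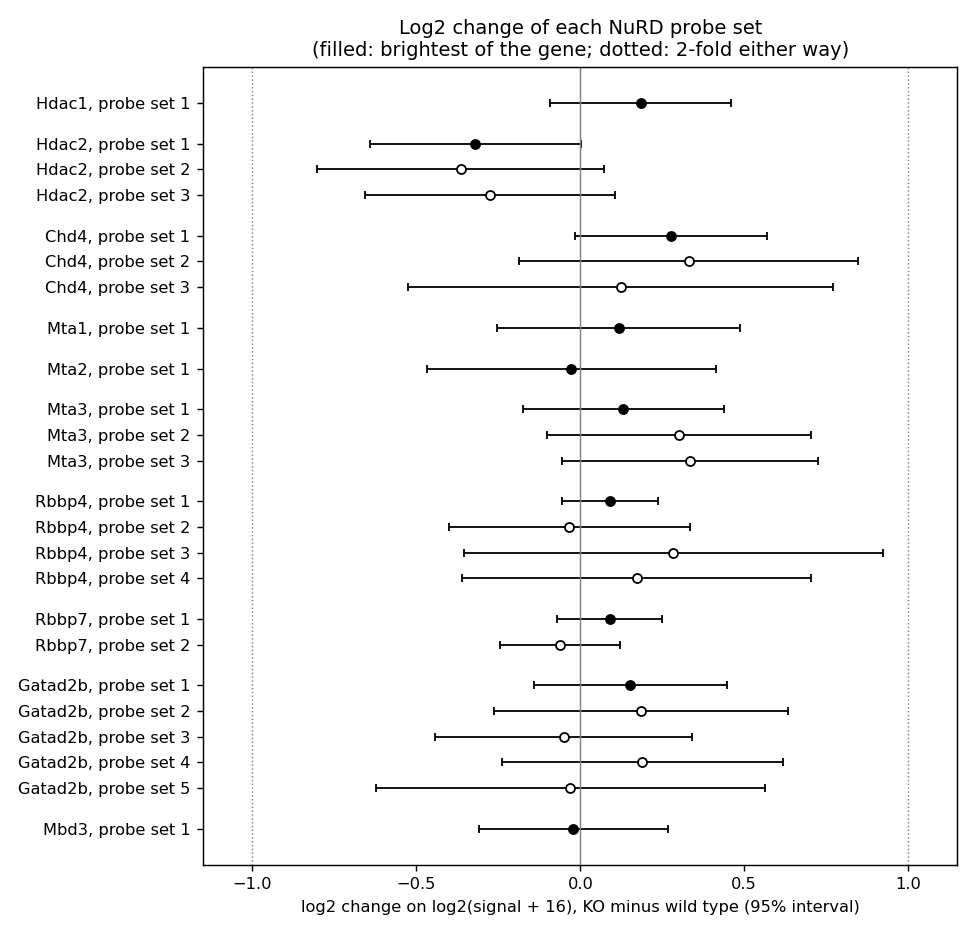
Log2 change (KO minus WT, horizontal axis, with 95% intervals from limma) of each of the 24 tested NuRD probe sets, grouped by gene and ordered by brightness within a gene. Estimates run from -0.37 for Hdac2 probe set 2 to 0.33 for Mta3 probe set 3, and no interval reaches either dotted line, which mark 2-fold on the log2(signal + 16) scale.

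The genes of smallest p in each direction were Hdac2, with lower estimates, and Chd4, with higher ones, and their promoters are shown because they are the members whose values lay farthest from no change for their error. Promoter windows of 250 bases before to 50 after a start were found in RefSeq (GRCm38.p6) for 8 of the 10 genes, with 10 windows in all, and not for Hdac1 and Mta3. In both sequences, written 5′ to 3′ on the strand of the gene, capitals mark the GC box GGGCGG or its reverse complement CCGCCC. The Hdac2 window is chr10:36974294-36974593 on the plus strand and the Chd4 window is chr6:125095913-125096212 on the plus strand, the second of its 2 starts.
Hdac2: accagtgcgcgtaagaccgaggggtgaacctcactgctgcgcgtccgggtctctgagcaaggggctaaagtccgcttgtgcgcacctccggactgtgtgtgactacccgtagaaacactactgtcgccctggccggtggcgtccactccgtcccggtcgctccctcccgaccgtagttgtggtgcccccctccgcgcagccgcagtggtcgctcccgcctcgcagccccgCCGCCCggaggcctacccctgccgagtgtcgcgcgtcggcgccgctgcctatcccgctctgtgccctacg
Chd4: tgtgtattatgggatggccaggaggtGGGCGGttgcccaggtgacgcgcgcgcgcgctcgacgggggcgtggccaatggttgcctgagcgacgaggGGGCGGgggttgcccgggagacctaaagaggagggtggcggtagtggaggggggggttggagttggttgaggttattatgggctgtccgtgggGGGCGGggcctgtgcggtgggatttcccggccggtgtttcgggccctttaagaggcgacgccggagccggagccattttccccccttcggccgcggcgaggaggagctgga
The GC box, searched on both strands, occurred in all 10 member windows and in 35.7% of all 32851 windows. The 10 windows come from 8 genes, and the 2 Chd4 windows overlap and share some of their GC boxes. The member windows held 16 to 50 CG dinucleotides, with a median of 29.5, against a median of 7 over all windows. The printed Hdac2 window held 36 CG dinucleotides and 1 GC box, the printed Chd4 window 29 and 3, and the window of Mta1 the most of the members (50, with 4 GC boxes). CCAAT, on both strands, was found in 7 of 10 member windows and 37.4% of all, and TATAAA, on both strands, in 1 of 10 and 13.6%. These matches describe letters and are no evidence of binding.

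Hdac2, a catalytic deacetylase of the complex, had lower estimates on each of its 3 probe sets in KO. For probe set 1 (1445684_s_at) the signals were 4025.1, 2991.1, 1949.2, 3907.4, 3464.8 and 3846.6 on KO 1 to KO 6, and 3971, 4471.4, 4436.2, 3721.1 and 3895.5 on WT 1 to WT 5. KO 1, KO 4 and KO 6 lay within the WT range, KO 5 a little under it, and KO 2 and KO 3 farther under it. The means were 3364 ± 789 in KO (SD, n = 6) and 4099 ± 337 in WT (SD, n = 5), so the log2 change was -0.32, with a 95% interval of -0.64 to 0.0017 (limma, adjusted p = 0.727, unadjusted p = 0.0511). Of all probe sets, 7.03% had a p as small or smaller. The suffix s_at of probe set 1 can mark probes shared by several transcripts, and whether its signal belongs to Hdac2 alone was not tested. Probe set 2 (1449080_at) had the same 2 arrays lowest, with 1373.9 on KO 2 and 861.8 on KO 3, against 1799.6 to 2300.1 on the other KO arrays and 1739.2 to 2846.4 on the WT arrays. Its log2 change was -0.37 ± 0.21 (SE; limma, adjusted p = 0.839). Probe set 3 (1439704_at) was dim, at 41.2 to 74.8 in KO and 53 to 78.8 in WT, and KO 3 (68) was not among its low arrays. KO 2 and KO 3 were also the arrays with the highest GAPDH 3'/5' ratios. Without both of them the log2 change of Hdac2 was -0.10 on probe set 1 and -0.064 on probe set 2. On the dim probe set 3 it was -0.28, as it was with all arrays. With the log2 of the ratio as a covariate the changes on probe sets 1, 2 and 3 were -0.29, -0.32 and -0.27 (limma, adjusted p = 0.174, 0.378 and 0.738). The part of RNA quality in the Hdac2 values was not tested beyond these fits. KO 2 and KO 3 were the lowest pair of the 11 arrays on 2 of 24 member probe sets and on 4.82% of all.

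**Figure D2:**
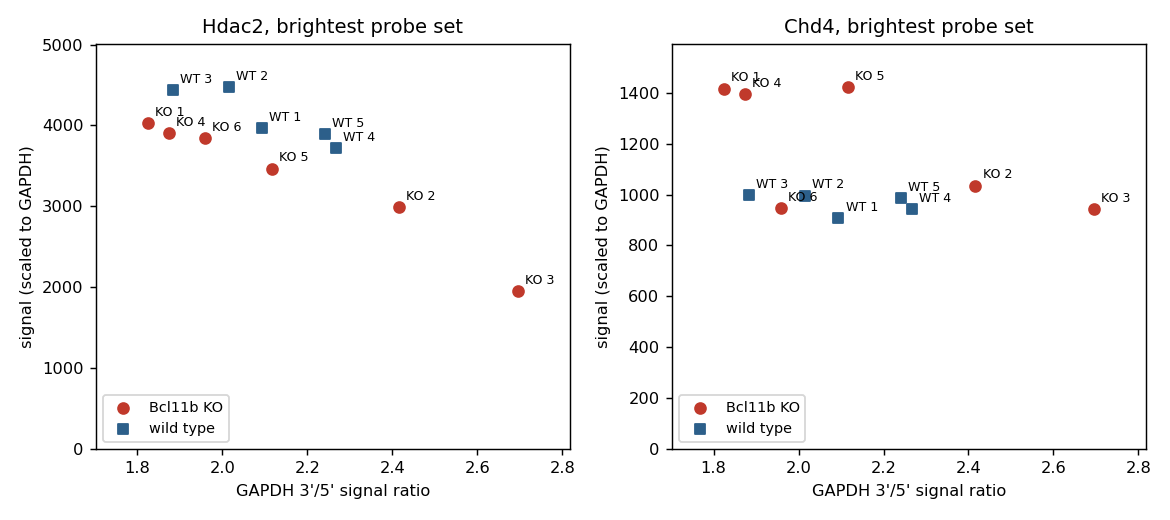
Signal of the brightest probe set of Hdac2 (left) and Chd4 (right) against the GAPDH 3'/5' ratio of each array, with KO arrays as circles and WT arrays as squares. Hdac2 is lowest on KO 3 and KO 2, which have the ratios 2.70 and 2.42, whereas Chd4 on those arrays (943.3 and 1035.7) is close to the WT arrays.

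Hdac1, the paralogous deacetylase, had 1 probe set (1448246_at). Its signals ran from 1167.5 to 1700.2 in KO, with a median of 1466.8, and were 1133.2, 1509.4, 1170.4, 1201.1 and 1337.6 on the WT arrays. KO 1, KO 4 and KO 6 lay above every WT array and the other KO arrays lay among them. The log2 change was 0.18, with an interval of -0.092 to 0.46 (limma, adjusted p = 0.920), opposite in sign to that of Hdac2. Whether the changes of Hdac1 and Hdac2 differ was not tested.

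Chd4, the ATPase that moves nucleosomes, had higher estimates in KO on all 3 probe sets. On probe set 1 (1451295_a_at) the KO arrays fell into distinct levels, with 1416.8, 1396.8 and 1421.9 on KO 1, KO 4 and KO 5 and 1035.7, 943.3 and 946.3 on KO 2, KO 3 and KO 6. The WT arrays read 909, 996.2, 997.8, 943.8 and 987.7. Of the 6 KO arrays 4 were thus above all WT arrays, KO 2 by little, and KO 3 and KO 6 were within the WT range, and the KO SD (242, n = 6) was larger than the WT SD (39.2, n = 5). The log2 change was 0.28 ± 0.14 (SE; limma, adjusted p = 0.767; 95% interval -0.017 to 0.57), and 8.26% of all probe sets had a p as small or smaller. The KO arrays at the lower level include both females (KO 3 and KO 6) and both arrays of highest GAPDH 3'/5' ratio (KO 2 and KO 3). Among males only the change was 0.43 (limma, adjusted p = 0.166, unadjusted p = 0.00239). With sex as a covariate the change is the same by design, because no WT mouse was female, and the adjusted p was 0.263. Without KO 2 and KO 3 the change was 0.40 (limma, adjusted p = 0.186, unadjusted p = 0.00746). With the log2 of the ratio as a covariate the change was 0.29 (limma, adjusted p = 0.443). The parts of sex and RNA quality in the Chd4 values were not tested beyond these fits. Probe sets 2 and 3 (1436343_at and 1438476_a_at) did not show these levels: KO 6, low on probe set 1, read 1112.2 on probe set 2, among the highest. Their log2 changes were 0.33 ± 0.25 and 0.12 ± 0.31 (SE; limma, adjusted p = 0.927 and 0.989).

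**Figure D3:**
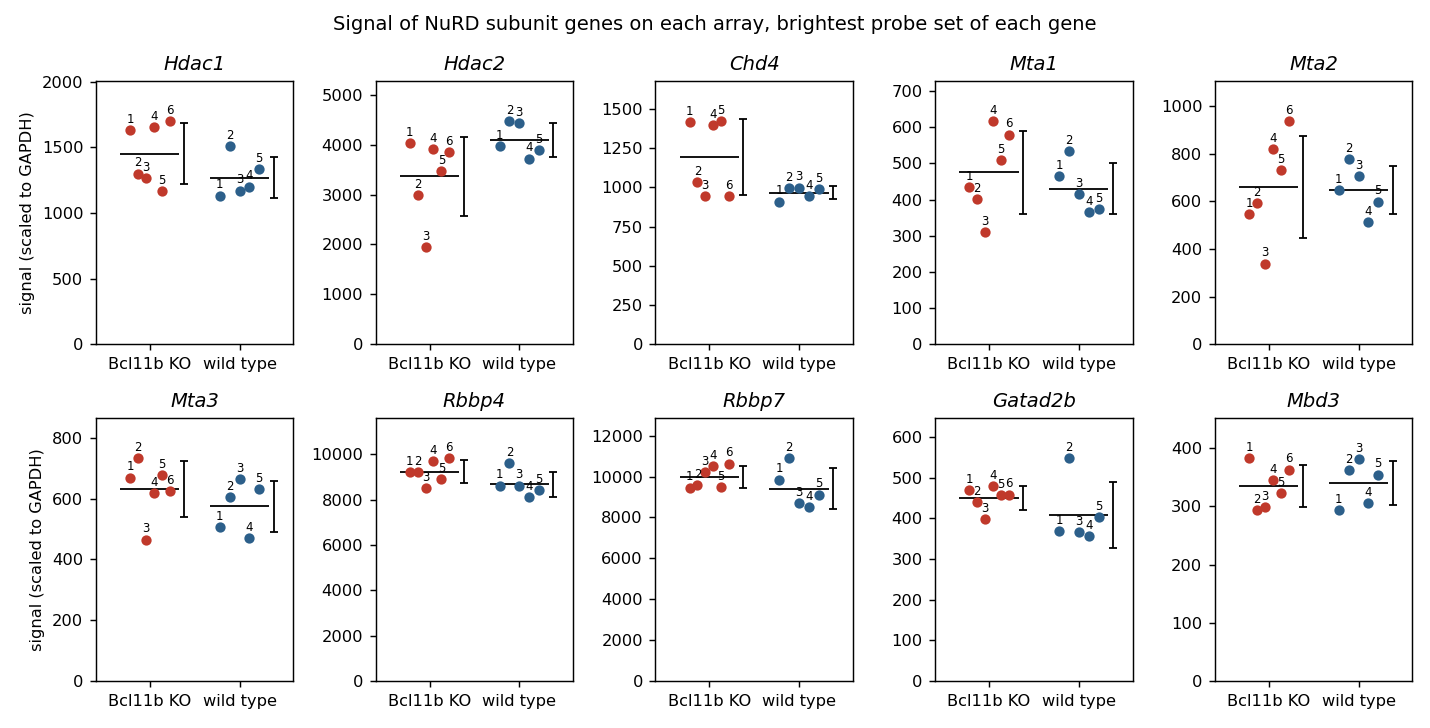
Signal (linear axis, scaled to GAPDH) of the brightest probe set of each of the 10 NuRD genes on every array, KO left of WT; numbers are replicates, lines are group means and bars are SD. The groups overlap in every panel. Chd4 on KO 1, KO 4 and KO 5 (1396.8 to 1421.9) and Hdac2 on KO 3 (1949.2) lie apart from the WT arrays.

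The Mta genes encode the scaffold subunits, which are alternatives to each other within a complex. Mta1 (1417295_at) ran from 311 to 617 in KO and from 364.7 to 534.3 in WT, and its log2 change was 0.12, with an interval of -0.25 to 0.49 (limma, adjusted p = 0.982). Its other probe set (1440113_at) read 1.5 to 4.6 in KO and 1.1 to 3.6 in WT and was left out as too dim. Mta2 (1423165_a_at) was spread more widely in KO, from 338.4 on KO 3 to 937.1 on KO 6, than in WT (512.2 to 777.3), around a log2 change of -0.028 with an interval of -0.47 to 0.41 (limma, adjusted p = 0.997). Both female KO mice thus gave the extremes of Mta2. Mta3 had higher estimates on all 3 probe sets, with log2 changes of 0.13, 0.30 and 0.33 (SE 0.15, 0.19 and 0.19; limma, adjusted p = 0.971, 0.892 and 0.830). On its probe set 2 (1451352_s_at), 5 KO arrays read 305.8 to 426.9, all above the WT arrays at 213.5 to 271.3, and KO 3 read 162.6, under all of them. Without KO 3 the log2 change of probe set 2 was 0.46 (limma, unadjusted p = 0.00388, adjusted p = 0.198). This probe set also has the suffix s_at, and whether its signal belongs to Mta3 alone was not tested. On probe set 3 (1443350_at) the KO arrays ran from 41.9 to 70.9 and the WT arrays from 28.1 to 55.9.

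Rbbp4 and Rbbp7, the histone-binding WD repeat subunits, had the narrowest intervals on their brightest probe sets and on Rbbp7 probe set 2, while Rbbp4 probe set 3 had among the widest. Rbbp4 probe set 1 (1434892_x_at) read 8502 to 9846.9 in KO and 8103.2 to 9600.9 in WT, a log2 change of 0.091 with an interval of -0.055 to 0.24 (limma, adjusted p = 0.932). Rbbp7, whose gene lies on the X chromosome, read 9467 to 10636.1 in KO and 8511.9 to 10917.8 in WT on probe set 1 (1456227_x_at), a log2 change of 0.090 with an interval of -0.070 to 0.25 (limma, adjusted p = 0.949). The suffix of both probe sets marks probes that can bind other transcripts, so these signals may not belong to 1 gene alone. On the probe sets without that suffix, Rbbp7 probe set 2 (1415775_at) had an estimated log2 change of -0.062, with an interval of -0.25 to 0.12 (limma, adjusted p = 0.979). Those of Rbbp4 went both ways, at -0.034 ± 0.17, 0.28 ± 0.30 and 0.17 ± 0.25 on probe sets 2, 3 and 4 (1454791_a_at, 1454875_a_at and 1456260_at; SE; limma, adjusted p = 0.995, 0.968 and 0.981). On probe set 2 of both genes, KO 3 was the lowest of all arrays, at 4979 for Rbbp7 and 782.5 for Rbbp4. The female arrays KO 3 and KO 6 read 4979 and 6835.2 on Rbbp7 probe set 2, against 6381 to 6735.2 for the KO males.

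Gatad2b, which links the remodeler to the deacetylase part, had 5 tested probe sets, more than any other member, with log2 changes from -0.051 to 0.19 (limma, adjusted p of 0.958 to 0.997). On probe set 1 (1437474_at) the KO arrays lay close together, at 398.1 to 479.4, and the WT arrays at 356.2 to 403.9 apart from WT 2 (549.1). The log2 change was 0.15, with an interval of -0.14 to 0.45. Probe sets 2 and 3 (1425075_at and 1437507_at) read 159 to 332.1 and 96.5 to 200.5 in KO and 137.6 to 293.6 and 131.3 to 199 in WT, so the groups covered much the same range on each. Mbd3, the subunit with a methyl-CpG-binding domain, read 292.9 to 383.2 in KO and 293.3 to 381.4 in WT (1417728_at), which are nearly the same ranges. Its log2 change was -0.021, with an interval of -0.31 to 0.27 (limma, adjusted p = 0.996), a fold change between 0.807 and 1.20.

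Probe sets of a gene were compared by testing, on each array, the difference between the brightest and each other tested probe set. Of the 6 genes with more than 1 tested probe set, Hdac2, Chd4 and Mta3 had estimates of 1 sign and Rbbp4, Rbbp7 and Gatad2b had estimates of both signs. None of the 14 member pairs differed in its group change (limma over 12672 same-gene pairs, adjusted p = 0.9998 for each), while 0.0158% of all pairs did, and 0 of the 14 had an unadjusted p under 0.05, against 5.47% of all. The widest interval of such a difference, for Chd4 probe sets 1 and 3, was -0.54 to 0.85, and that for Rbbp4 probe sets 1 and 3 was -0.87 to 0.48, so the pairs were not all shown to be alike. Mta3 probe set 1 against probe set 3 differed by -0.20, with an interval of -0.54 to 0.13.

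**Figure D4:**
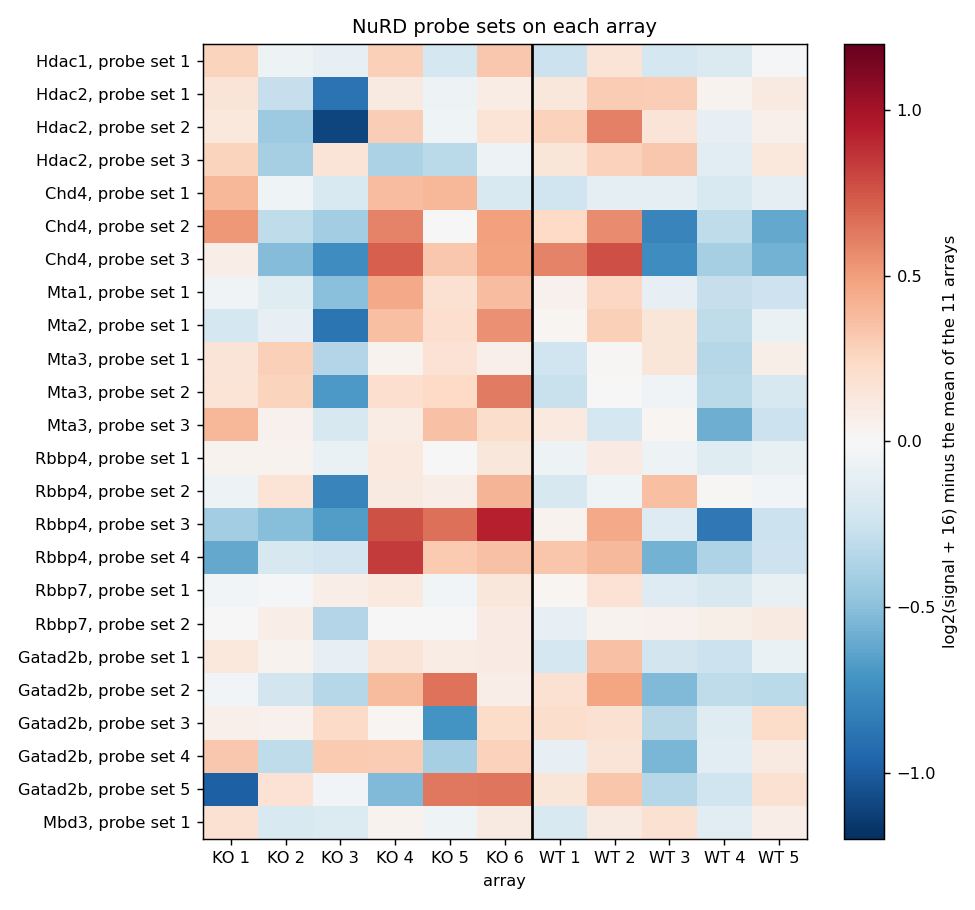
Log2(signal + 16) of each NuRD probe set (rows) on each array (columns, KO left of WT), minus the mean of that probe set over the 11 arrays; red is above the mean and blue below. KO 3 is the lowest array on 9 of 24 probe sets, and the dim probe sets 3 and 4 of Rbbp4 are high on KO 4, KO 5, KO 6, WT 1 and WT 2.

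Single arrays recurred at the extremes. KO 3 was the lowest array on 9 of 24 member probe sets and on 28.1% of all, and KO 6 was the highest on 7 and on 15.2% of all. The poly-A controls, bacterial transcripts added before labelling, had mean log2 levels from 7.99 (WT 4) to 9.08 (KO 6). The arrays were cut at the widest gap in these values, between 8.40 (KO 2) and 8.67 (WT 2). This gave 5 of higher level (KO 4, KO 5, KO 6, WT 1 and WT 2) and 6 of lower level. The cut was thus chosen from the data, and a label for such a split was not given. On 5 member probe sets (of Chd4, Mta1, Gatad2b and 2 of Rbbp4) all arrays of higher level lay above all of lower level, which held for 5.64% of all probe sets. Rbbp4 probe set 3 (1454875_a_at) read 182.7 to 352.5 on the arrays of higher level and 90.4 to 156.6 on the other 6. Chd4 probe set 3 read 142 to 199.6 on the arrays of higher level and 59.5 to 117.3 on those of lower level. Within the arrays of higher and lower level the log2 change was -0.17 and -0.48 for Hdac2 and 0.37 and 0.19 for Chd4 on probe set 1, and 0.54 and -0.11 for Rbbp4 probe set 3. With the level of these controls as a covariate the changes were -0.41 for Hdac2 and 0.26 for Chd4 (limma, adjusted p = 0.285 and 0.663), and 0.018 for Rbbp4 probe set 3 and -0.11 for Chd4 probe set 3 (adjusted p = 0.990 and 0.953).

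Genes of the pathway outside the members were described on their brightest probe sets. Of the 5 other NuRD subunits, Chd3, Chd5, Gatad2a, Mbd2 and Cdk2ap1, 0 passed (limma, adjusted p of 0.530 to 0.992). Those of smallest p were Chd3, a remodeler related to Chd4, with 815 ± 116 in KO and 629 ± 80.9 in WT (SD, n = 6 and 5; log2 change 0.36, unadjusted p = 0.0188, adjusted p = 0.530), and Mbd2, which binds methylated DNA (-0.11; adjusted p = 0.974). Of 6 measured proteins known to carry an N-terminal motif that binds NuRD, 1 fell, Bcl11b itself (log2 change -1.88; limma, adjusted p = 1.2e-05), and its paralog Bcl11a had a log2 change of 0.32 (adjusted p = 0.767). Sall3 and Sall4 of that list had no tested probe set.

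Complexes that share subunits with NuRD, the NCoR complex with other class I deacetylases, and proliferation genes were given by the same measure. Of 11 measured Sin3 genes, which share the deacetylases and Rbbp4 and Rbbp7, 0 passed, with a median log2 change of 0.048. Sap30 and Suds3, core subunits of that complex, had the smallest p (log2 changes 0.23 and 0.18; limma, adjusted p = 0.903 and 0.906). Of 6 CoREST genes, which share the deacetylases, 0 passed. Rcor1, the scaffold, had 1939 ± 483 in KO and 2575 ± 300.1 in WT (log2 change -0.44; limma, unadjusted p = 0.0128, adjusted p = 0.456), and Kdm1a, the demethylase, had a change of 0.20 (adjusted p = 0.804). Among 5 genes of the NCoR complex and other class I deacetylases, Hdac3 and Hdac8 had changes of 0.32 and 0.35 (limma, unadjusted p = 0.0435 and 0.127, adjusted p = 0.693 and 0.883). Of 9 PRC2 genes 0 passed, with Ezh1, a histone methyltransferase, at 0.38 and Phf1 at -0.27 (limma, unadjusted p = 0.0235 and 0.0988, adjusted p = 0.574 and 0.843). Of 8 genes of other complexes that hold Rbbp4 or Rbbp7, 0 passed, with Bptf at 0.25 and Lin54 at 0.18 (limma, adjusted p = 0.816 and 0.958). Of 15 proliferation genes 0 passed and 14 had a higher estimate, with a median of 0.15 against 0.048 over the brightest probe sets of all 15133 genes, and Mcm2 and Mcm7 had the smallest p (0.41 and 0.19; limma, adjusted p = 0.806 and 0.879). Over all those genes 0.674% passed, 61.2% had a higher estimate and 8.48% had an unadjusted p under 0.05.

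**Figure D5:**
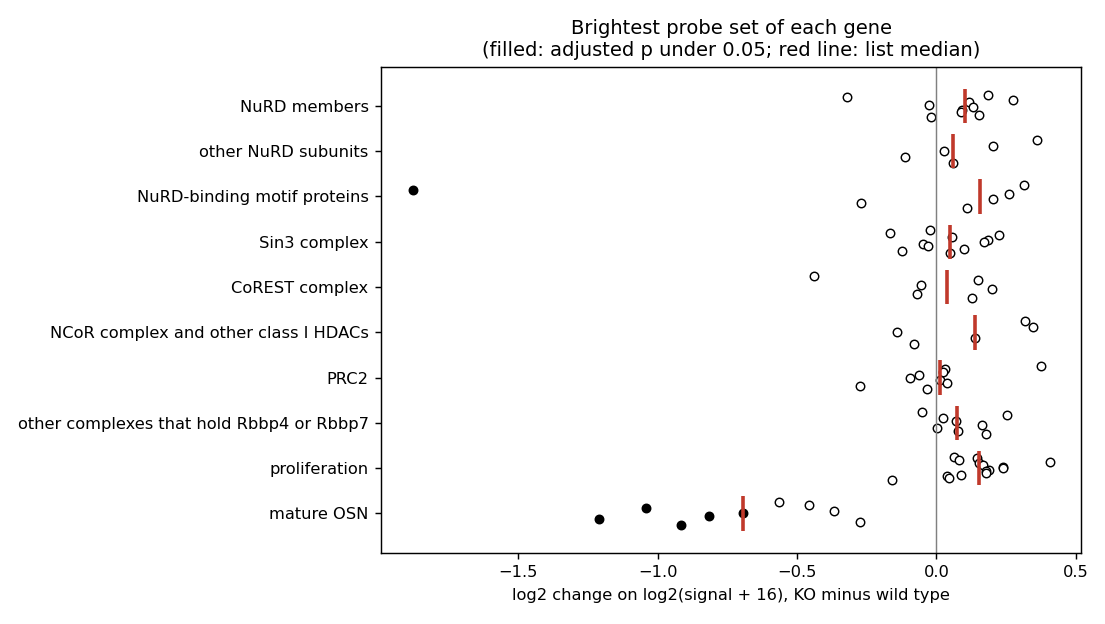
Log2 change (KO minus WT) of the brightest probe set of each measured gene in each list, with filled points for adjusted p under 0.05 and a red line at the list median. NuRD genes lie between -0.32 and 0.28 with a median of 0.10, and the filled points are Bcl11b (-1.88) and 5 mature OSN markers. Besides proliferation, mature OSNs are the only cell type list drawn.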

How the data were processed

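The authors made biotin-labelled cRNA by 2-cycle amplification, hybridized 1 array for each preparation and, in the GeneChip operating software (GCOS), scaled each array linearly to a GAPDH probe set. The deposited values are intensities on a linear scale, 45101 probe sets on 11 arrays; in them that GAPDH probe set reads 10000 on every array. The detection algorithm was not given in the sources used here. The platform annotation named a single gene for 34958 probe sets, several for 932 and none for 9211.

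Intensities were used as log2(signal + 16), which understates changes of dim probe sets. Control probe sets (64) and those with a mean signal under 20 were left out, which left 33662. KO and WT were compared with limma 3.58.1 (R 4.3.3; lmFit, eBayes with trend, no covariate), with Benjamini-Hochberg adjustment over all tested probe sets and a threshold of 0.05. A list used the brightest tested probe set of each gene. The fit was tested on simulated data with independent noise for each probe set. Such data lack effects shared across an array, so they do not show how the fit behaves under these. Precision is limited by how many arrays there were, and p-values measure the spread between preparations. Members, lists and tests were chosen with earlier results of these data known. Named were Bcl11b, all members and, in each pathway list, genes past the threshold and the pair of smallest p; cell type lists were given as counts. Replicate numbers did not pair the arrays.

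Alternatives were 3 other scalings, other pseudocounts and filters, eBayes without trend, array weights, males only, covariates, the replicate number as a block, probe set means and leaving out arrays.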

Additional observations from a re-analysis of the deposited data

Results flagged for a closer look

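In 4 of 50 groups of arrays examined (24 member probe sets and Bcl11b, each in KO and WT), 1 array lay far from the rest, by its gap to the nearest array as a share of the group's range; chance gives about 1 in 20. KO 3 was low on Mta3 probe set 2 (162.6 against 305.8 to 426.9 on the other KO arrays, a gap of 0.648 of the range) and on Rbbp7 probe set 2 (4979 against 6381 to 6835.2, a gap of 0.783). KO 5 was low on Gatad2b probe set 3 (96.5 against 171.7 to 200.5, a gap of 0.782). WT 2 was high on Gatad2b probe set 1 (549.1 against 356.2 to 403.9 on the other WT arrays, a gap of 0.711).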

How the results depend on the processing

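No NuRD probe set passed the threshold in any of the 26 alternatives, in which the smallest adjusted p was 0.0906, for Hdac2 scaled on spiked hybridization controls (log2 change -0.52). Of 270 values of the members' brightest probe sets under alternatives, 249 kept their sign and 21 changed it, and Hdac2 (-0.52 to -0.10) and Chd4 (0.078 to 0.43) kept theirs in all 27 of each. Scaling on spiked controls moved the median of all probe sets from 0.047 to -0.13, and relative to that median the members' median was 0.059, against 0.072 as reported. It turned Hdac1 to -0.014, Mta1 to -0.077, Mta3 to -0.065, Rbbp4 to -0.11, Rbbp7 to -0.11 and Gatad2b to -0.041; the log2 level of these controls was itself greater in KO, by 0.19 (exact permutation test, p = 0.026). Mta1 was -0.0083 with the poly-A level as a covariate. Mta2 was 0.096 with array weights, 0.0068 with the GAPDH ratio as a covariate and 0.048 among males only. With sex as a covariate Mta2 was the same 0.048 by design, because no WT mouse was female. Without KO 2 and KO 3, an alternative chosen after seeing the data, Mta2 was 0.21. Leaving out single arrays gave -0.14 to 0.15 for Mta2 and -0.069 to 0.021 for Mbd3, which was 0.060 without KO 2 and KO 3; the cause was not tested. It gave -0.38 to -0.17 (without KO 3) for Hdac2, 0.036 (without KO 4) to 0.23 (without KO 3) for Mta1, 0.062 (without WT 4) to 0.21 (without KO 3) for Mta3, 0.055 (without WT 4) to 0.14 (without WT 2) for Rbbp7 and 0.11 to 0.26 (without WT 2) for Gatad2b. Rbbp4 probe set 3 was 0.44 ± 0.30 (SE) without KO 3 and 0.44 ± 0.31 without WT 2, against 0.28 ± 0.30, and its 95% interval then reached past 2-fold.

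Over all probe sets 153 passed, and 293 after quantile normalization, 330 on spiked controls, 345 with array weights, 282 without KO 2 and KO 3, 91 with the replicate block and 85 to 212 without 1 array. The share of these calls that were higher in KO was 53.6%, 41.0% after quantile normalization, 17.9% on spiked controls, 65.2% with array weights, 68.1% with the replicate block, 66.7% without WT 2 and 71.6% without KO 2 and KO 3. With the replicate block 0 members passed; arrays of the same number had deviations that correlated between -0.28 and 0.0085, so they share only a number. Same-gene pairs called as different were 2 of all pairs, and 4 with a pseudocount of 64, 1 with a minimum signal of 100, 7 with array weights, 0 among males only, with sex as a covariate, with the replicate block and without KO 2 and KO 3, 1 with the GAPDH ratio and 1 to 4 without 1 array; none was of a member. The within-group spread and the 11 arrays limit what can be seen: the intervals of 12 member probe sets reached past 1.5-fold on the log2(signal + 16) scale.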
